A study of Mus musculus with 173 samples.

Results

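The genes described are 32 subunits of glutamate and GABA-A receptors, chosen by symbol and matched to the gene identifiers of the deposited tables, where all 32 were found among 38561 gene entries. They comprise 4 AMPA, 5 kainate and 6 NMDA receptor subunits, 1 delta receptor, 6 metabotropic glutamate receptors and 10 GABA-A receptor subunits. Other subunits of these families were not analysed here. Polyadenylated RNA was sequenced from 5 brain regions of 16 C57BL/6 mice aged 6 months: brainstem, cerebellum, hippocampus, hypothalamus/thalamus and corpus callosum. The Q175 group held 8 mice (4 females and 4 males) heterozygous for a knock-in allele with an expanded CAG repeat in Htt, the mouse huntingtin gene, and the wild-type group held 8 mice (4 females and 4 males) of the same strain and age. All 16 mice gave a library in every region, which makes 80 of the 173 libraries of the tissue survey. Per the labels, cage mates of the Q175 group were other Q175 mice, whereas the wild-type group lived with mice heterozygous for a Q20 allele, and the library names of the wild-type mice carry Q20 codes although the series text calls them littermates, so genotype, housing and colony cannot be told apart.

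Glutamate opens AMPA, kainate and NMDA receptors, which are cation channels built from subunits, and it acts more slowly through metabotropic receptors coupled to G proteins. GABA-A receptors are chloride channels, and their alpha, beta, gamma and delta subunits set where on the neuron they sit and how they respond. Which subunits a neuron makes differs between brain regions, and cerebellar granule cells and hippocampal pyramidal cells are the usual examples. Huntington's disease, which the knock-in allele models, is known mainly for the loss of striatal neurons, and the regions studied here lie outside the striatum.

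The 80 libraries held 28 to 39.7 M estimated counts each. In 10 of them the values fell with transcript length, by 0.133 to 0.352 log2 units per doubling, against slopes of -0.071 to 0.093 in the other 70. They were 2 Q175 libraries in hippocampus (females 3 and 4), 3 Q175 and 1 wild-type library in hypothalamus/thalamus, 1 wild-type library in brainstem, and 2 Q175 and 1 wild-type library in corpus callosum. Receptor genes are long (median 4.28 kb, against 2.3 kb over all genes with a length), so receptor calls below are also given without these libraries where that changes them. Htt itself was lower in Q175 cerebellum (log2 fold change -0.21 ± 0.04, adjusted p = 0.00182) and hippocampus (-0.58 ± 0.15, adjusted p = 0.0387), and had log2 fold changes of -0.28, -0.50 and -0.57 in brainstem, hypothalamus/thalamus and corpus callosum with no call there. In hippocampus Htt ran from 80.9 to 206 CPM (median 182) in Q175 libraries, against 209 to 255 CPM (median 236) in wild type. Htt values without the libraries with a length trend are not given, and the part of that trend in them was not tested. The regions carried their own markers: hypothalamic peptide genes summed to 425 to 852 CPM in hypothalamus/thalamus and to at most 22.7 CPM elsewhere, brainstem neuron markers to 581 to 1021 CPM in brainstem and at most 96.6 CPM elsewhere, and oligodendrocyte markers to 32160 to 71240 CPM in corpus callosum and at most 23310 CPM elsewhere. Corpus callosum held neuron markers as well. Excitatory neuron markers summed to 1647 to 4160 CPM in wild type there. They summed to 489 to 1554 CPM in wild-type brainstem, cerebellum and hypothalamus/thalamus, and to 7936 CPM or more in hippocampus. General neuron genes summed to 2228 to 5133 CPM there and to 5968 CPM or more in the other wild-type regions. Levels below were not adjusted for this. In bulk tissue, fewer cells of a type and less RNA per cell cannot be told apart.

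Levels between genes are compared as FPKM, the deposited values scaled to gene length and library total, and given as mean ± SD over 8 wild-type libraries. All 32 receptor genes differed in level between the 5 regions (adjusted p of 1.23e-07 or below in edgeR), as did 97.6% of all genes tested in wild type and 97.5% in Q175, so the levels themselves are described. The highest mean was in hippocampus for 13 genes, in cerebellum for 9, in hypothalamus/thalamus for 9 and in corpus callosum for 1. Each of the 32 genes had its highest mean in the same region in Q175 mice, and 18 kept the whole order of regions. Of the 128 pairs of regions next to each other in these orders, 40 did not differ at an adjusted p under 0.05.

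**Figure D1:**
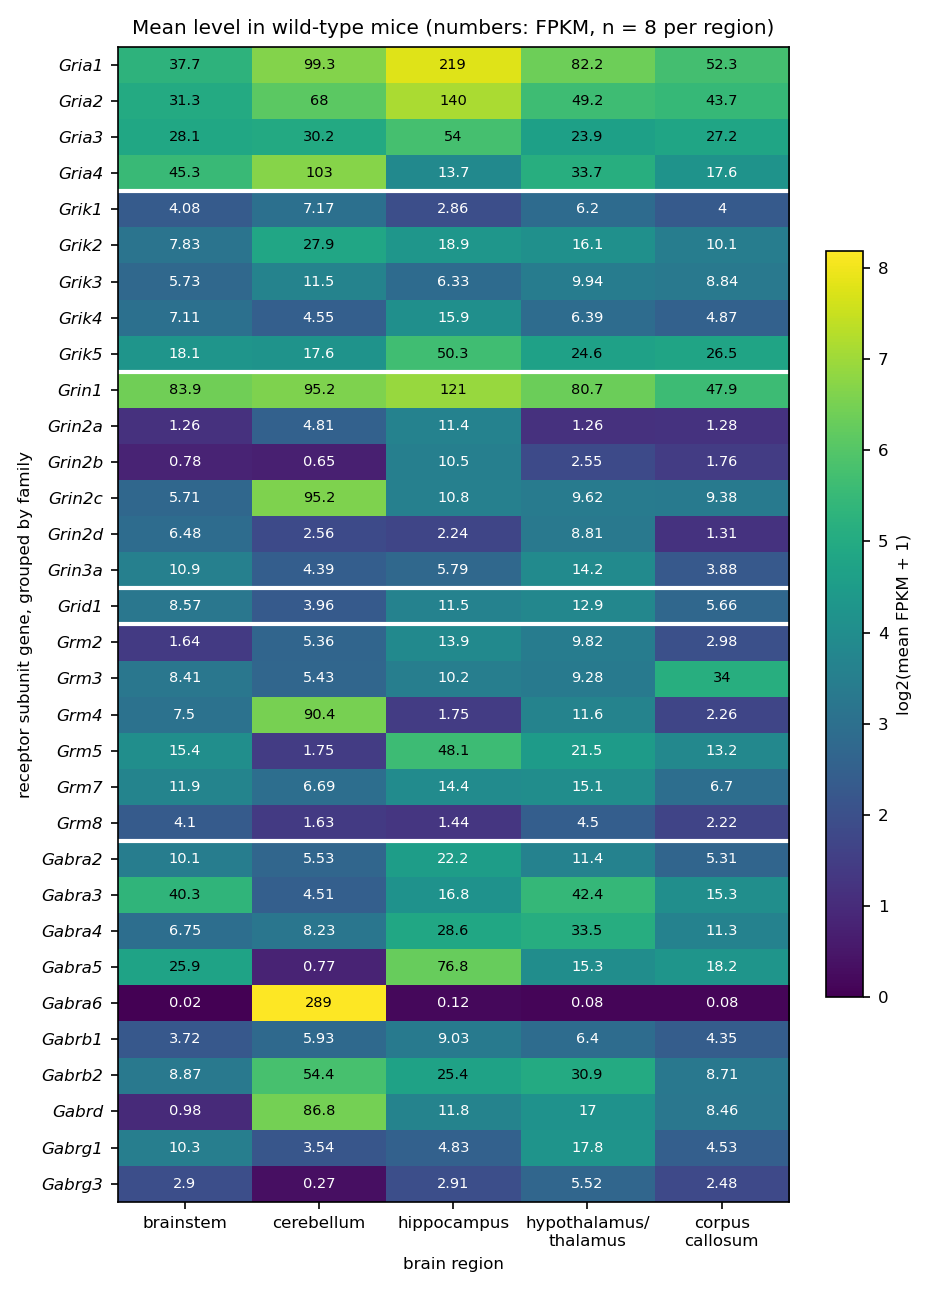
Mean level of the 32 receptor genes (rows, grouped as AMPA, kainate, NMDA, delta, metabotropic glutamate and GABA-A receptor genes) in 5 brain regions (columns) of 8 wild-type mice. Colour is log2(mean FPKM + 1) and the numbers are mean FPKM. Gabra6 stands at 289 FPKM in cerebellum and at 0.123 or less in every other region, and Gria1 reaches 219 FPKM in hippocampus.

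Among the AMPA subunits, which carry fast excitatory transmission, hippocampus had the highest levels of Gria1 (219 ± 6.35 FPKM), Gria2 (140 ± 5.92) and Gria3 (53.97 ± 1.45), while Gria4 was highest in cerebellum (103 ± 3.16) and lowest in hippocampus (13.7 ± 1.12). Gria2, whose product keeps calcium out of the channel, made up 32.7% of the summed AMPA FPKM in hippocampus, 31.2% in corpus callosum, 25.9% in hypothalamus/thalamus, 22.6% in cerebellum and 21.9% in brainstem. Gria1 gave 51.4% of that sum in hippocampus against 26.5% in brainstem. Gria3 was among the 5 genes with the smallest ratio between regions (2.21-fold on the FPKM + 1 scale), and its neighbouring levels in cerebellum, brainstem and corpus callosum (30.2, 28.1 and 27.2 FPKM) did not pass the test of their difference.

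Of the kainate subunits, Grik2, a channel-forming subunit, was highest in cerebellum (27.9 ± 1.52 FPKM). Grik5 and Grik4, which need such a partner, were highest in hippocampus (50.3 ± 2.38 and 15.9 ± 1.09 FPKM). Grik1 and Grik3, which form channels as well, were highest in cerebellum (7.17 and 11.5 FPKM) and were the flattest of the family, with ratios between regions of 2.11 and 1.86. Grik3 had the smallest ratio of all 32 genes, and its levels in cerebellum and hypothalamus/thalamus (11.5 and 9.94 FPKM) did not pass the test of their difference.

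Grin1, the obligatory NMDA subunit, stood between 47.9 FPKM in corpus callosum and 121 FPKM in hippocampus. Its partners were uneven. Grin2c was 95.2 ± 8.11 FPKM in cerebellum, against 5.71 to 10.8 FPKM in the other regions, and made up 92.2% of the summed Grin2a to Grin2d FPKM there. Hippocampus had Grin2a (11.4 ± 2.49 FPKM), Grin2b (10.5 ± 3.11) and Grin2c (10.8 ± 0.52) at similar levels, and in brainstem Grin2d (6.48 ± 0.59) and Grin2c (5.71 ± 0.37) led. Grin2b was below 1 FPKM in brainstem and cerebellum. Grin3a, a subunit that lowers calcium entry, was highest in hypothalamus/thalamus (14.2 ± 1.86 FPKM), as was Grid1 (12.9 ± 0.64), a delta receptor that links synaptic partners, although its level there and in hippocampus (11.5 ± 0.48) did not pass the test of their difference.

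For the metabotropic receptors, Grm4, a presynaptic inhibitory receptor of granule cells, reached 90.4 ± 6.21 FPKM in cerebellum, against 1.75 to 11.6 FPKM elsewhere, and gave 81.2% of the summed FPKM of the 6 receptors. Grm5, which signals through calcium release, showed the opposite placement, with 48.1 ± 2.75 FPKM in hippocampus and 1.75 ± 0.12 in cerebellum. Grm3, known from astrocytes and other glia as well as neurons, was highest in corpus callosum (34 ± 5.64 FPKM), the white matter sample, against 5.43 to 10.2 FPKM elsewhere. Grm2, its close relative, was highest in hippocampus (13.9 ± 1.40 FPKM). The presynaptic receptors Grm7 and Grm8 ran from 6.69 to 15.1 and from 1.44 to 4.50 FPKM, and Grm7 had a ratio between regions of 2.10.

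The GABA-A subunits gave the widest ratios. Gabra6, the alpha subunit of granule cells, had the largest (286-fold on the FPKM + 1 scale), with 289 ± 12.7 FPKM in cerebellum. Gabrd, the subunit of receptors outside synapses, stood at 86.8 ± 5.34 FPKM in cerebellum and 0.978 ± 0.177 in brainstem. Gabra5 was 76.8 ± 4.28 FPKM in hippocampus and 0.768 ± 0.276 in cerebellum, and Gabra2 was likewise highest in hippocampus (22.25 ± 1.802). Gabra3 had 42.4 ± 2.62 FPKM in hypothalamus/thalamus and 40.3 ± 2.33 in brainstem, a pair whose difference did not pass the test, and Gabra4 had 33.5 ± 7.68 FPKM in hypothalamus/thalamus and 28.6 ± 1.53 in hippocampus, which did not pass either. Gabrb2 was highest in cerebellum (54.4 ± 5.57 FPKM). Gabrb1 had a ratio of 2.13 and was highest in hippocampus (9.03 ± 1.43). Gabrg1 (17.8 ± 2.78 FPKM) and Gabrg3 (5.52 ± 1.06) were highest in hypothalamus/thalamus. Outside the brain, 29 of the 32 genes were below 1 FPKM in the wild-type mean of each of the 6 other tissues surveyed. The exceptions were Gabra3 (8.21 FPKM in intestinal white adipose), Grik5 (3.66 in gonadal white adipose) and Gria3 (3.17 in intestinal white adipose).

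The stretch of 250 bases upstream of the annotated start is shown for 4 genes whose levels or changes carry the results: Gria2, Grm3, Grin2c and Gabra6. The sequences are from RefSeq (GRCm38.p6), read 5′ to 3′ on the gene's own strand, and 22 of the 32 genes matched an entry. Capitals mark letters searched on both strands: the RE1 core, known as a site of the repressor REST, and the GC box GGGCGG. All 4 genes lie on the minus strand, Gria2 at chr3:80802836-80803085, Grm3 at chr5:9725353-9725602, Grin2c at chr11:115267244-115267493 and Gabra6 at chr11:42321073-42321322, and no exon of the GENCODE M21 annotation of the same assembly overlaps these stretches.
Gria2: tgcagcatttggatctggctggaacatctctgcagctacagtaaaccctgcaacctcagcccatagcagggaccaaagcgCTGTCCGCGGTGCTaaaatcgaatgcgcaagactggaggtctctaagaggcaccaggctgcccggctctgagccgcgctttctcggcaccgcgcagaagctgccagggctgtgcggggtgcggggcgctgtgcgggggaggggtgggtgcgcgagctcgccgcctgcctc
Grm3: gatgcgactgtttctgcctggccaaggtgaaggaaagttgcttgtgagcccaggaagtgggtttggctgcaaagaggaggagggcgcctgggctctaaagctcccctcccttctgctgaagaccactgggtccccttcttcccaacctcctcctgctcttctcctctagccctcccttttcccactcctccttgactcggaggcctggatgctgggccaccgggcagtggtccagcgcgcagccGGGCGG
Grin2c: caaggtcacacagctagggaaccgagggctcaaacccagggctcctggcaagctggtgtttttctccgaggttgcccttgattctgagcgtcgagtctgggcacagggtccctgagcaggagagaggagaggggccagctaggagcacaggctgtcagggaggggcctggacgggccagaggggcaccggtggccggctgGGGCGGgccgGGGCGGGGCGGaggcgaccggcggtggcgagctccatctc
Gabra6: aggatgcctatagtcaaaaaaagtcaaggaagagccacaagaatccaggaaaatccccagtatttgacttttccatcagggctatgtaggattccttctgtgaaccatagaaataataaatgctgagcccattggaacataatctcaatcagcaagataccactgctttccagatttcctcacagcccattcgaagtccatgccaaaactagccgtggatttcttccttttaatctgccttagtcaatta

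Gria2 was the only receptor gene with a match to the RE1 core, which was in 15 of the 32851 mouse windows of this length (0.0457%). The 22 genes had 29 such windows. The GC box was in 13 of the 29, which belonged to 12 genes, Grm3 and Grin2c among them, and in 32.7% of all windows. The letters TGACGTCA (the CRE) were in none of the receptor windows and in 1.55% of all windows. TATAAA was in 3 of the 29 receptor windows, of Gabra3 and Gabrb2, and in 12.4% of all windows. These are matches of letters only, overlaps between the searched letters were not removed, and nothing is drawn from them about binding.

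Each change between genotypes is given as log2 of the Q175 level divided by the wild-type level, ± SE, from an edgeR model that also held sex, and levels are CPM on the TMM scale. In cerebellum, 4 receptor genes rose and 7 fell in Q175 mice, 11 of 32 tested, against 16.1% of all 16020 genes called (7.94% higher and 8.11% lower). The median over the 32 genes was -0.02, against -0.01 over all genes tested, and 18 of the 32 had a value below 0, against 52.1% of all genes. Libraries of the genotypes did not overlap for 3 of the 32, against 3.68% of all genes (1.74% with Q175 below). Grm4 fell to 0.599 of its wild-type level, and Gria2, Grik2, Grik5 and Grin1 rose by 0.11 to 0.22 on the log2 scale. Subunits of each family but the delta receptor were among the 11.

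Grm4 ran from 227 to 261 CPM (median 236) in Q175 cerebellum, against 359 to 429 CPM (median 402) in wild-type cerebellum. Its 8 Q175 libraries all lay below the 8 wild-type libraries, with a log2 fold change of -0.74 ± 0.03 (adjusted p = 6.38e-12). Grm4 was thus the receptor gene with the smallest p in any region, and the change was -0.75 to -0.72 when single libraries were left out. Its close relatives Grm7 and Grm8 had log2 fold changes of -0.09 and 0.08 and were not called. Grm3 had 15.1 to 18.99 CPM (median 17.1) in Q175, against 17.1 to 21.4 CPM (median 19.6) in wild type (log2 fold change -0.16 ± 0.05, adjusted p = 0.0329). The groups overlapped, and the call was lost without any of 7 libraries (Q175 females 1 and 2, Q175 males 3 and 4, wild-type females 2 and 3, and wild-type male 2), with an adjusted p of up to 0.0717.

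Subunits of AMPA, kainate and NMDA receptors were the genes that rose. Gria2 ran from 494 to 567 CPM (median 539) in Q175, against 433 to 492 CPM (median 471) in wild type. The groups did not overlap, and the change was 0.21 ± 0.03 (adjusted p = 0.000180). Gria1, Gria3 and Gria4 had log2 fold changes of 0.03, -0.07 and 0.04 with no call, so within the AMPA family the call fell on Gria2. Grik2 ran from 136 to 158.5 CPM (median 143) in Q175 libraries, against 115 to 135 CPM (median 124) in wild type, again without overlap (0.22 ± 0.03, adjusted p = 8.56e-05). Its partner Grik5 had 72.2 to 78.2 CPM (median 75.5) in Q175 libraries, against 63.9 to 73.8 CPM (median 67.1) in wild type, with overlap (0.15 ± 0.03, adjusted p = 0.00118). The third kainate gene called, Grik3, lay on the other side, with 83.9 to 102 CPM (median 96.0) in Q175 libraries, against 90.9 to 114 CPM (median 104) in wild type (-0.12 ± 0.04, adjusted p = 0.0464). That call was lost without any of 14 of the 16 libraries, the exceptions being Q175 male 2 and wild-type male 3, with an adjusted p of up to 0.0964.

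The NMDA genes moved both ways in cerebellum. Grin1 had 342 to 399 CPM (median 383) in Q175 libraries, against 324 to 372 CPM (median 352) in wild type, with 7 of 8 Q175 libraries above the wild-type median (0.11 ± 0.03, adjusted p = 0.0212). With summed general neuron genes as a term in the model its change was 0.05 and the call was lost (adjusted p = 0.308). In the annotation, an antisense transcript (Grin1os) overlaps 13.5% of the Grin1 exon bases, and strand was not stated for these libraries. Grin2c, the main partner there, had 343 to 398 CPM (median 376) in Q175 libraries, against 377 to 474 CPM (median 412) in wild type, with overlap (-0.15 ± 0.04, adjusted p = 0.0114).

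Of the 10 GABA-A genes, 3 fell in cerebellum and none rose. Gabrd had 169 to 188 CPM (median 178) in Q175 libraries, against 176 to 216 CPM (median 196) in wild type (-0.14 ± 0.04, adjusted p = 0.00704). Gabra3 had 12.5 to 14.8 CPM (median 14.2) in Q175, against 14.2 to 18.4 CPM (median 15.7) in wild type (-0.20 ± 0.05, adjusted p = 0.0116). Gabra5, scarce in this region, had 0.600 to 1.42 CPM (median 0.953) in Q175 libraries, against 0.861 to 3.12 CPM (median 2.20) in wild type (-1.06 ± 0.24, adjusted p = 0.00477). All 3 overlapped between the genotypes, and on log2 of FPKM + 1 the Gabra5 change was -0.36. In a limma fit that shared 1 estimate of the spread over all 80 brain libraries, Grm4 alone of the cerebellar 11 was still called, beside 570 of 18153 genes (3.14%). Gabra6, the leading alpha subunit, had a log2 fold change of 0.04 and was not called.

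**Figure D2:**
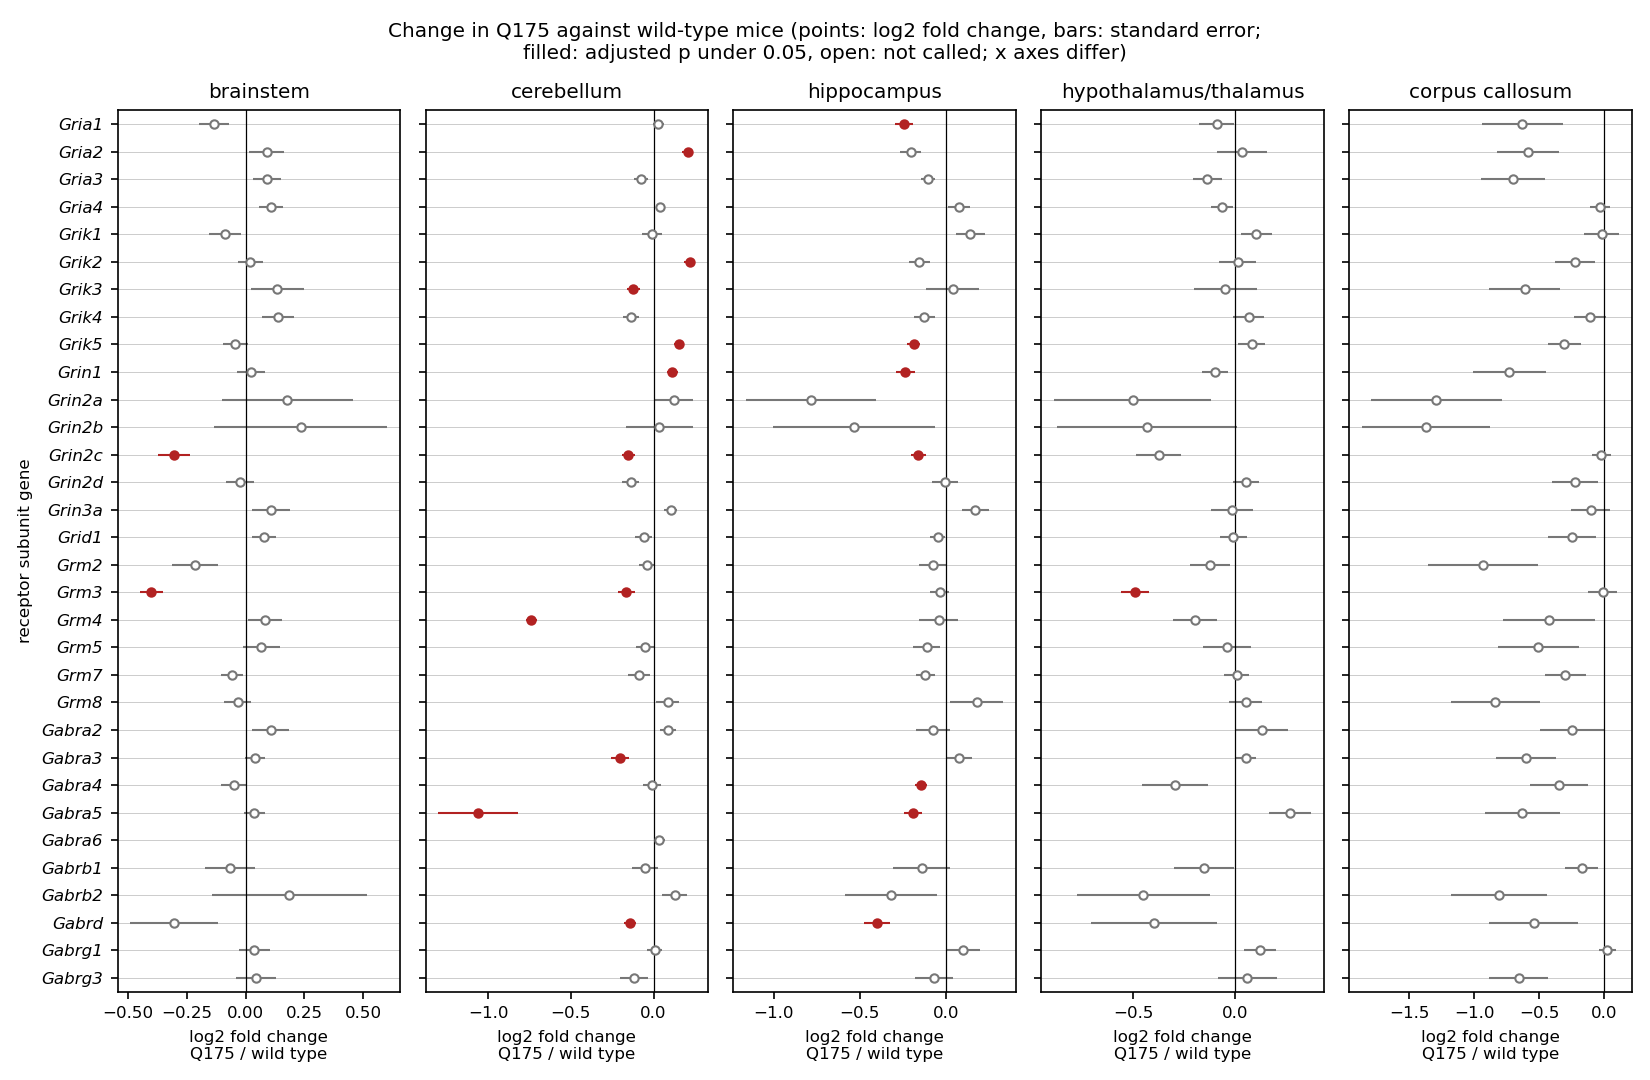
Log2 fold change of Q175 over wild type (x axis, scale differs between panels) for the 32 receptor genes (y axis) in 5 brain regions, with standard errors as bars. Filled red points have an adjusted p under 0.05 and open grey points do not. The 11 calls in cerebellum lie on both sides of 0, the 7 in hippocampus all lie below it, and the corpus callosum panel holds no call although 30 of its 31 points lie below 0.

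Sums of marker genes also differed between the genotypes in cerebellum. Summed granule neuron markers were 4169 to 4367 CPM in Q175 libraries, against 4504 to 4931 CPM in wild type, with 2 of 9 markers called higher and 4 lower. Oligodendrocyte markers summed to 3256 to 4464 CPM in Q175 libraries, against 4691 to 5670 CPM in wild type (10 of 10 lower), and astrocyte markers to 1528 to 1646 CPM in Q175 libraries, against 1646 to 1824 CPM in wild type (5 of 9 lower). Of 12 general neuron genes, 3 were called higher and 6 lower. Excitatory neuron markers summed to 1286 to 1436 CPM in Q175 libraries, against 1438 to 1554 CPM in wild type (2 of 12 higher and 3 lower). Thalamic neuron markers summed to 665 to 736 CPM in Q175 libraries, against 547 to 594 CPM in wild type (1 of 7 higher and 2 lower). Brainstem neuron markers summed to 55.4 to 65.5 CPM in Q175 libraries, against 64.3 to 96.6 CPM in wild type (2 lower of 4 tested), beside Gabra5 and Gabra3, whose wild-type levels were 25.9 and 40.3 FPKM in brainstem and 0.768 and 4.51 FPKM in cerebellum. Grm5, Gabrg3, Gabrg1 and Grin3a were also higher in brainstem (15.45, 2.90, 10.3 and 10.9 FPKM) than in cerebellum (1.75, 0.274, 3.54 and 4.39 FPKM). Their changes in cerebellum were -0.05, -0.12, 0.01 and 0.10, with no call, while Grm3, likewise higher in brainstem, was called lower. No granule, oligodendrocyte, astrocyte, general or excitatory neuron marker was at 0 in all cerebellar libraries. With summed general neuron genes as a term, 3 receptor genes were called higher and 7 lower, against 11.3% of all genes, and the part of the other lists in the receptor results was not tested.

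Genes that work with the receptors were called in cerebellum in both directions, where 16.1% of all genes were called. Of 14 auxiliary subunits of AMPA and kainate receptors, 2 rose (Shisa9, 0.18, and Cacng4, 0.09) and 2 fell (Cnih2, -0.21, and Gsg1l, -0.27). Of 22 scaffold and signalling genes of the excitatory postsynapse, 3 rose and 3 fell, with Dlg3 (0.16 ± 0.02, adjusted p = 4.80e-05), Pick1 (0.12), Dlgap1 (0.12) and Camk2b (-0.09) the 4 with the smallest p. Of 8 inhibitory postsynaptic genes, 3 rose and 1 fell. Slitrk3, an adhesion protein of inhibitory synapses, had 24.8 ± 2.33 CPM in Q175 and 17.6 ± 1.27 CPM in wild type (SD, n = 8 each), with a log2 fold change of 0.49 ± 0.06 from edgeR. The scaffold gene Gphn (0.08) and Iqsec3 (-0.17) were also called. Of 4 GABA-B receptor genes found, Kctd8 rose (0.31). Of 16 synthesis and transport genes tested, 4 fell: the vesicular transporters Slc17a6 (-0.66) and Slc17a7 (-0.14), the GABA transporter Slc6a11 (-0.35) and glutamine synthetase Glul (-0.18).

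In hippocampus, 7 of 31 receptor genes tested fell and none rose, against 4.56% of all 16298 genes called (1.96% higher and 2.60% lower). The median over the receptor genes was -0.11, against 0.01 over all genes tested, and 24 of the 31 had a value below 0, against 47.1% of all genes. This median and count hold with all libraries kept. Without Q175 females 3 and 4, which had a length trend, the median was -0.04. Not all of the 24 then stayed below 0 (Grid1 moved from -0.05 to 0.01). The 7 were Gria1, Grik5, Grin1, Grin2c, Gabra4, Gabra5 and Gabrd. The changes were small, between -0.14 and -0.40 on the log2 scale.

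Gria1 ran from 861 to 1145 CPM (median 1045) in Q175 hippocampus, against 1164 to 1270 CPM (median 1192) in wild-type hippocampus. The groups did not overlap, and the change was -0.24 ± 0.05 (adjusted p = 0.0130). Grin1 likewise did not overlap, with 330 to 438 CPM (median 413) in Q175 libraries, against 443 to 504 CPM (median 467) in wild type (-0.24 ± 0.06, adjusted p = 0.0204). The Grin1 call was lost in 5 of 12 alternative settings. In edgeR with a term for whether the library name ended in a code starting with D, the change was -0.23 (adjusted p = 0.0734). That D code was present in 2 Q175 and 0 wild-type hippocampal libraries, so the term partly overlaps with genotype. In limma on log2 of FPKM + 1 the change was -0.22 (adjusted p = 0.0510). Beside these 2 of 31 genes, 1.52% of all genes did not overlap (1.09% with Q175 below). Gria2 had a similar size of change without a call, with 682 to 930 CPM (median 880) in Q175 libraries, against 888 to 1001 CPM (median 982) in wild type (-0.20 ± 0.06, adjusted p = 0.0704). Grik5 had 160 to 185 CPM (median 171) in Q175 libraries, against 182 to 208 CPM (median 193) in wild type, with a small overlap (-0.19 ± 0.04, adjusted p = 0.0125). Grin2c, at 35.1 to 46.3 CPM (median 43.6) in Q175 libraries, against 43.3 to 52.3 CPM (median 47.2) in wild type, overlapped more (-0.16 ± 0.04, adjusted p = 0.0423). Its call was lost without any of 13 libraries, the exceptions being wild-type male 4, wild-type female 1 and Q175 female 2, with an adjusted p of up to 0.0879.

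Gabrd showed the largest of the 7 changes, with 15.2 to 23.6 CPM (median 19.7) in Q175 libraries, against 22.7 to 30.4 CPM (median 24.4) in wild type (-0.40 ± 0.08, adjusted p = 0.00618). Gabra4, which pairs with the delta subunit in forebrain receptors outside synapses, had 101 to 114 CPM (median 108) in Q175 libraries, against 109 to 126 CPM (median 121) in wild type (-0.14 ± 0.03, adjusted p = 0.0232). Without Q175 male 4 or wild-type female 2 that call was lost, with an adjusted p of up to 0.0506. Gabra5, the leading one of the alpha subunits measured here in hippocampus, had 160 to 207 CPM (median 176) in Q175 libraries, against 190 to 224 CPM (median 204) in wild type (-0.19 ± 0.05, adjusted p = 0.045). Its call was lost without any of 12 libraries, the exceptions being wild-type male 2, wild-type female 1 and Q175 females 3 and 4, with an adjusted p of up to 0.0894.

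Q175 females 3 and 4 had the steepest length trends in hippocampus (-0.352 and -0.256). Without them, 8 receptor genes were called lower and 1 higher of 31 tested, against 5.62% of all 16417 genes called, and the median was -0.04. Gria1 (-0.17, adjusted p = 0.00227), Grin1 (-0.16, adjusted p = 0.00750), Grik5 (-0.16, adjusted p = 0.0140), Gabrd (-0.45, adjusted p = 0.00120), Gabra5 (-0.24, adjusted p = 0.00170), Gabra4 (-0.14, adjusted p = 0.0214) and Grin2c (-0.12, adjusted p = 0.0398) were still called lower. Gria2 was then called (-0.11, adjusted p = 0.0477), and so was Grin3a in the other direction (0.28, adjusted p = 0.00279). Values of Grin2a and Grin2b rested on them: the uncalled log2 fold changes of -0.78 and -0.54 became -0.35 and -0.05. With all libraries kept and each library's length trend removed instead, Gabra4 (-0.10, adjusted p = 0.131) and Grin2c (-0.10, adjusted p = 0.115) lost their calls, Gria2 was not called (-0.08, adjusted p = 0.0727), and Grin3a was called (0.30, adjusted p = 0.000311). That fit called 5 receptor genes lower and 1 higher of 31 tested, against 7.65% of all genes called.

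Excitatory neuron markers summed to 6736 to 7593 CPM in Q175 hippocampus and 7936 to 9117 CPM in wild type, without overlap, and 6 of the 12 were called lower. General neuron genes summed to 7521 to 8804 CPM in Q175 libraries, against 7880 to 8387 CPM in wild type (1 of 12 lower), and GABAergic neuron markers to 1108 to 1423 CPM in Q175 libraries, against 1017 to 1214 CPM in wild type (none of 10 called). No excitatory marker was at 0 in all libraries. The part of the excitatory and GABAergic markers in the receptor results was not tested. With summed general neuron genes as a term in the model, 17 receptor genes were called, all lower, against 39.5% of all genes. The highest general neuron sums were those of Q175 females 3 and 4 (8804 and 8408 CPM), the libraries with a length trend. Their receptor sums were the lowest (3422 and 3540 CPM). The part of the length trend in these calls was not tested. In the limma fit over all 80 libraries 1 receptor gene was called in hippocampus, against 1.76% of all genes. It was Grin2a (-1.06, adjusted p = 0.0304), which was not among the 7 of edgeR.

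**Figure D3:**
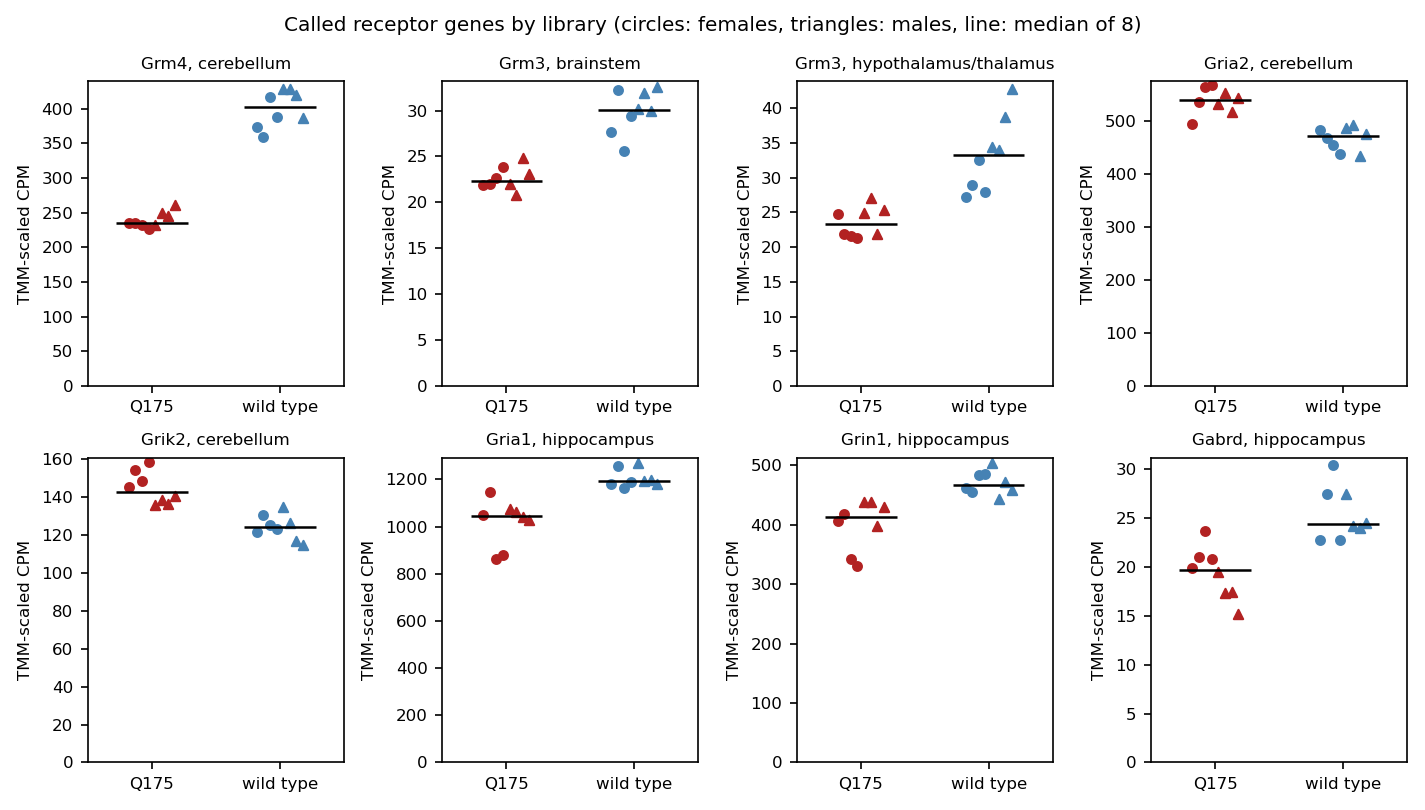
TMM-scaled CPM (y axis, from 0) of 8 called pairs of gene and region in each of 8 Q175 (left) and 8 wild-type (right) libraries, with females as circles, males as triangles and the median as a line. Grm4 in cerebellum, with Q175 libraries at 227 to 261 CPM and wild-type libraries at 359 to 429 CPM, does not overlap, while Gabrd in hippocampus overlaps slightly.

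Genes of the excitatory postsynapse were also called lower in hippocampus. Of 22 scaffold and signalling genes, 8 fell and none rose, with a median of -0.22, against 2.6% of all genes called lower and a median of 0.01 over all genes tested. Nptxr, a pentraxin receptor that clusters AMPA receptors, had 821 ± 41.8 CPM in Q175 and 1069 ± 34.5 CPM in wild type (SD, n = 8 each; edgeR log2 fold change -0.38 ± 0.04). Camk2a (-0.41) and Camk2b (-0.32), the kinase subunits of synaptic plasticity, and the scaffold gene Homer3 (-0.42) had the next smallest p. Camk2a, Nptx1 and Slc17a7 are also in the list of excitatory neuron markers. Of 14 auxiliary subunits, 3 fell (Gsg1l, -0.51, Cacng8, -0.28, and Cacng2, -0.14) and Cnih3 rose (0.28). Iqsec3 (-0.26) was the single inhibitory postsynaptic gene called of 8, and none of 4 GABA-B genes was called in edgeR (2 at an unadjusted p under 0.05). The glutamate transporters Slc1a2, of astrocytes (-0.36), and Slc17a7, of synaptic vesicles (-0.15), fell among 17 synthesis and transport genes. Values of these lists without Q175 females 3 and 4, the libraries with a length trend, are not given. The part of that trend in the calls of these lists was not tested.

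In brainstem, 2 of 31 receptor genes tested fell and none rose, against 3.07% of all 16563 genes called (2.07% higher and 1% lower). Grm3 had 20.8 to 24.8 CPM (median 22.3) in Q175, against 25.6 to 32.6 CPM (median 30.03) in wild type. Its groups did not overlap, as was the case for 1.25% of all genes (0.392% with Q175 below), and the change was -0.40 ± 0.05 (adjusted p = 0.000123). Grin2c had 17.9 to 24.5 CPM (median 19.7) in Q175 libraries, against 21.96 to 27.7 CPM (median 25.5) in wild type, with overlap (-0.30 ± 0.07, adjusted p = 0.0154). Grm2 (-0.22, adjusted p = 0.332) and Gria1 (-0.14, adjusted p = 0.339) had the next smallest p and were not called, and without wild-type female 3, the library with a length trend, Gria1 was called (-0.18, adjusted p = 0.0304). The median over the receptor genes was 0.04, against -0.002 over all genes tested, and 12 of the 31 had a value below 0, against 50.7% of all genes.

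In hypothalamus/thalamus, Grm3 was the 1 receptor gene called of 31 tested, against 0.574% of all 16739 genes (0.108% higher and 0.466% lower). It had 21.3 to 27.1 CPM (median 23.3) in Q175 libraries, against 27.2 to 42.8 CPM (median 33.3) in wild type, without overlap, as did 0.317% of all genes (0.251% with Q175 below; -0.49 ± 0.07, adjusted p = 0.00169). Without the 4 libraries with a length trend the change was -0.47 (adjusted p = 0.00584). Grin2c (-0.38 ± 0.11, adjusted p = 0.163), Gabra5 (0.27 ± 0.10, adjusted p = 0.275) and Gria3 (-0.14 ± 0.07, adjusted p = 0.425) followed without a call. The receptor genes had a median of -0.04, against 0.01 over all genes tested, and 0.08 without those 4 libraries, and 18 of the 31 had a value below 0, against 47.9% of all genes.

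Some glial genes were called lower beside Grm3 in both regions, and in brainstem others were called higher. Glul, the astrocytic glutamine synthetase, had 1301 ± 90.1 CPM in Q175 and 1780 ± 74.5 CPM in wild-type brainstem (SD, n = 8 each; edgeR log2 fold change -0.45 ± 0.05). In hypothalamus/thalamus it had 1096 ± 84.2 CPM in Q175 and 1479 ± 151 CPM in wild type (-0.43 ± 0.07). The astrocytic GABA transporter Slc6a11 also fell in brainstem (-0.29). No other gene of the 5 lists of receptor-related genes was called in these 2 regions. Oligodendrocyte markers summed to 13900 to 18840 CPM in Q175 libraries, against 17450 to 23310 CPM in wild-type brainstem (5 of 10 lower). In hypothalamus/thalamus they summed to 4981 to 6644 CPM in Q175 libraries, against 6098 to 11280 CPM in wild type (5 of 10 lower). Astrocyte markers summed to 2117 to 2739 CPM in Q175 libraries, against 2166 to 2702 CPM in wild-type brainstem (2 of 9 lower), and to 1120 to 1296 CPM in Q175 libraries, against 1375 to 1531 CPM in wild-type hypothalamus/thalamus (2 of 9 lower). Oligodendrocyte precursor markers summed to 298 to 348 CPM in Q175 libraries, against 246 to 297.6 CPM in wild-type brainstem, without overlap (2 of 6 higher), and to 290 to 329 CPM in Q175 libraries, against 274 to 303 CPM in wild-type hypothalamus/thalamus (none of 6 called). Microglia markers, with none of 9 called in either region, had medians of 343 CPM in Q175 and 328 CPM in wild-type brainstem, and of 325 CPM in Q175 and 313 CPM in wild-type hypothalamus/thalamus. None of the oligodendrocyte or astrocyte markers was at 0 in all libraries of either region, and the part of these lists in the Grm3 result was not tested. Choroid plexus and ependymal markers reached 4418 CPM in Q175 hypothalamus/thalamus, against 111 CPM at most in wild type. Grm3 lies on chromosome 5, as do Gabra2, Gabra4, Gabrb1 and Gabrg1. None of these other 4 genes was called in brainstem or hypothalamus/thalamus, and Gabra4 was called lower in hippocampus. The part of chromosomal position in the Grm3 result was not tested.

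In corpus callosum, none of 31 receptor genes was called by edgeR or by DESeq2, against 0.0544% of all 16540 genes by edgeR (0.0484% higher and 0.00605% lower). None had libraries without overlap, against 0.115% of all genes (0.0242% with Q175 below). At an unadjusted p under 0.05 there were 13, against 19% of all genes. Values below 0 were seen in 30 of the 31, against 49.6% of all genes, with a median of -0.42, against 0.00 over all genes tested. Gabrg3 (-0.66 ± 0.23, adjusted p = 0.219), Gria3 (-0.70 ± 0.245, adjusted p = 0.219), Grin2b (-1.37 ± 0.49, adjusted p = 0.219) and Grin1 (-0.73 ± 0.28, adjusted p = 0.222) had the smallest p. Grin1 ran from 30.5 to 180 CPM (median 117) in Q175 libraries, against 103 to 299 CPM (median 194) in wild type, so that the libraries of each genotype spread widely. Grm3, the 1 receptor gene with its highest level in this sample, had 93.0 to 137 CPM (median 123) in Q175 libraries, against 80.2 to 148 CPM (median 121) in wild type (-0.01 ± 0.11), and Grin2c (-0.02), Gria4 (-0.03), Grik1 (-0.02) and Gabrg1 (0.02) had likewise small values. In the limma fit over all 80 libraries, 14 receptor genes were called in corpus callosum, all lower, against 20.5% of all genes, and without the 3 libraries with a length trend none was called by edgeR and the median was -0.50.

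Neuron markers spread as widely in these libraries. General neuron genes summed to 920 to 4299 CPM (median 2740) in Q175 libraries, against 2228 to 5133 CPM (median 3823) in wild type, and excitatory neuron markers to 475 to 2978 CPM in Q175 libraries, against 1647 to 4160 CPM in wild type. Neither list had a called member in edgeR, with 7 of 12 and 6 of 12 at an unadjusted p under 0.05. The 32 receptor genes together summed to 778 to 2071 CPM (median 1432) in Q175 libraries, against 1218 to 2928 CPM (median 1870) in wild type, or 44.9% to 84.6% of the general neuron sum in Q175 and 35.4% to 70.4% in wild type. With summed excitatory neuron markers as a term in the model, the median of the receptor genes was -0.03. Meningeal fibroblast markers reached 939 CPM in Q175, against 174 CPM at most in wild type, and striatal projection neuron markers reached 771 CPM in Q175 and 528 CPM in wild type. Their part in the receptor values was not tested. Of the lists of receptor-related genes, none held a called member, and the medians were -0.60 for auxiliary subunits, -0.51 for excitatory postsynaptic genes, -0.16 for inhibitory postsynaptic genes, -0.35 for GABA-B genes and -0.24 for synthesis and transport genes.

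**Figure D4:**
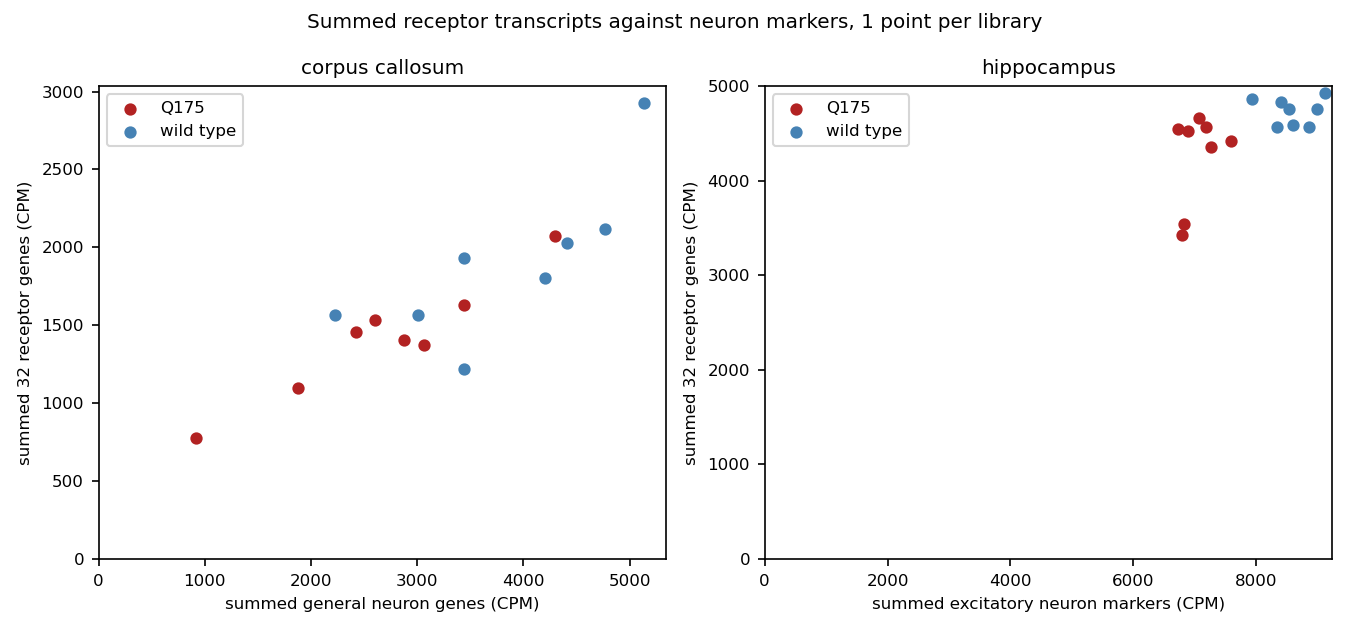
Summed CPM of the 32 receptor genes (y axis) against summed neuron genes (x axis) in each library of corpus callosum (left, general neuron genes) and hippocampus (right, excitatory neuron markers), with Q175 in red and wild type in blue. Callosal libraries spread from 778 to 2071 CPM in Q175 libraries, against 1218 to 2928 CPM in wild type, and hippocampal excitatory sums do not overlap between the genotypes.

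The response to the Q175 allele differed between regions for 11 of the 32 receptor genes in a limma model over the 80 libraries that took the correlation of libraries from the same animal into account, against 14.8% of all 18153 genes. This model shared 1 estimate of the spread per gene over all regions, although callosal libraries spread widely. The same fit called 20.5% of all genes in corpus callosum, against 0.0544% in edgeR on that region alone. The smallest p belonged to Grm3 (adjusted p = 0.000609), with log2 fold changes of -0.49 in hypothalamus/thalamus, -0.40 in brainstem, -0.16 in cerebellum, -0.04 in hippocampus and -0.01 in corpus callosum. Grik5 (adjusted p = 0.00280) and Grin1 (adjusted p = 0.0102) were called in opposite directions, at 0.15 and 0.11 in cerebellum and at -0.19 and -0.24 in hippocampus, and had uncalled values of -0.31 and -0.73 in corpus callosum. Gria2 (adjusted p = 0.00602) had 0.21 in cerebellum and, without a call, -0.20 in hippocampus and -0.59 in corpus callosum. Gabra5 (adjusted p = 0.00471) had -1.06 in cerebellum, -0.63 in corpus callosum, -0.19 in hippocampus and 0.27 in hypothalamus/thalamus, and Gabra3 (adjusted p = 0.00887) had -0.60 in corpus callosum, -0.20 in cerebellum and 0.04 in brainstem. Gria3 (adjusted p = 0.00607) and Grm8 (adjusted p = 0.00785) had -0.70 and -0.84 in corpus callosum. The value farthest from 0 was thus the callosal one for Grik5, Grin1, Gria2, Gabra3, Gria3, Grm8 and Gabrg3 (-0.66, adjusted p = 0.0412). Grm4, at -0.74 in cerebellum and 0.08 in brainstem, had an adjusted p of 0.0129, and of 0.0629 in edgeR with animal as a term, which called 10 of the 32 genes against 15% of all genes.

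Without the corpus callosum, 9 receptor genes were called, against 13.7% of all genes. Gria3 (adjusted p = 0.0905), Grm8 (0.709), Gabrg3 (0.798) and Grin2c (0.200) were then not called, Grik2 (0.0179) and Grik4 (0.0353) were, and Grm4 had an adjusted p of 3.69e-07. Between the sexes the response differed for none of the receptor genes and for none of all genes in any region in edgeR, with TMM or RLE factors. At an unadjusted p under 0.05 there were 3 receptor genes in hippocampus, where 21.7% of all genes passed and both libraries with a length trend were Q175 females, and none in brainstem, cerebellum, hypothalamus/thalamus or corpus callosum, where 3.19%, 3.34%, 7.34% and 2.3% of all genes passed, in that order.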

How the data were processed

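Polyadenylated RNA of the 80 brain libraries was analysed as deposited. The authors deposited estimated counts per gene (17.6% of brain values not whole) and FPKM per gene. CASAVA 1.8.2 is named in the submitters' processing notes, and no source used here gives the aligner, counter, genome build, annotation or strand. A symbol was attached to 95% of the entries. Estimated counts were rounded and tested per region with edgeR 4.0.16 (TMM, low-count filter, quasi-likelihood F-test, sex and genotype terms). A standard error is the absolute log2 fold change divided by the square root of F. Called means a Benjamini-Hochberg adjusted p under 0.05 over all genes tested. Levels between regions were tested in edgeR with animal as a term. The response between regions was tested with limma 3.58.1 (voom, correlation within animals 0.090), and DESeq2 1.42.0 was an alternative, in R 4.3.3. Marker and receptor sums are CPM of the library total. Scripts were tested on simulated data.

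The 32 genes, the gene lists and the tests were chosen with earlier results of these data known. Named were the called receptor genes of each region, or the 4 with the smallest p where fewer than 4 were called, and up to 4 called genes of each list of receptor-related genes. The values of 1 such gene are not reported here. Nothing says that replicates share more than a number: 9 of 40 same-numbered pairs of libraries correlated over 0.1 (range -0.352 to 0.38), so replicate numbers were not used as a block. No 2 libraries were identical, and 0 sample columns were left unused. Upstream sequences were read from RefSeq tables of GRCm38.p6.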

Additional observations from a re-analysis of the deposited data

Results flagged for a closer look

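In cerebellum, the Grin1 level of Q175 female 1 (342.3 CPM) lay apart from the other 7 Q175 libraries (372.8 to 399.0 CPM), and in hippocampus the Grin2c level of Q175 female 4 (35.1 CPM), a library with a length trend, lay apart from the others (41.06 to 46.3 CPM). Of the 42 groups of 8 libraries examined, chance sets a library apart in about 1 in 20.

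The Q175 response differed between the 5 brain regions in limma for Grm3 (adjusted p = 0.000609), Grik5 (0.002796), Gabra5 (0.004708), Gria2 (0.006024), Gria3 (0.006072), Grm8 (0.007849), Gabra3 (0.008872), Grin1 (0.01019), Grm4 (0.01293), Gabrg3 (0.04124) and Grin2c (0.04351). Without the corpus callosum, Gria3, Grm8, Gabrg3 and Grin2c were not called. In edgeR with animal as a term, Grm4 was not called (adjusted p = 0.0629).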

How the results depend on the processing

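In hippocampus, 7 receptor genes were called. The count was 4 with no filter on low counts and 3 with a term for the presence of the D code in the library name. It was 3 on log2 of FPKM + 1 and 3 on log2 of FPKM + 0.1. In limma over the 80 libraries it was 1, against 1.76% of all genes. With summed neuron genes as a term it was 17, against 39.5% of all genes. Leaving out single libraries gave 4 to 7, with 4 without Q175 male 4 or wild-type female 2. In cerebellum it was 1 in limma over the 80 libraries (3.14% of all genes), against 11 (16.1%), and 9 to 12 when single libraries were left out. In hypothalamus/thalamus it was 2 in that fit (2.62% of all genes) and 3 with summed neuron genes as a term (11.1% of all genes), against 1 (0.574%). In corpus callosum it was 14 in that fit (20.5% of all genes), against 0 (0.0544%). With a replicate block the count was 3 in hippocampus, 0 in hypothalamus/thalamus (Grm3, adjusted p = 0.061), 0 in corpus callosum, 11 in cerebellum and 2 in brainstem. DESeq2 called 8, 1, 0, 11 and 2 in the same order, against 7.84%, 1.94%, 1.22%, 17.1% and 4.34% of all genes. For the other settings the share of all genes called is not reported here. The cause of these shifts was not tested. None of the 21 called changes reversed its direction under the alternatives run.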
